A study of Mus musculus with 22 samples.

Results

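This report describes the binding of the coactivator p300 in Treg cells of the mouse, regulatory T lymphocytes that restrain immunity and depend on the transcription factor Foxp3. Chromatin immunoprecipitation sequencing (ChIP-seq) gave 1 peak list per library, with 2 libraries from IkE5 cells and 2 from wild-type (WT) cells. The 4 lists held 40873 of the 362285 peaks of the series. They were chosen by antibody and genotype, and peaks that overlapped by at least 1 bp were joined, which gave 18546 p300 regions, whereas the 18 lists of the series together gave 73991 regions.

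The IkE5 group carries the genotype that the labels call IkE5-deletion. The labels do not spell out this name, and they name neither the cells that carry the deletion nor the means by which it was made. Ikzf1, which encodes the zinc finger factor Ikaros, is named in the title, and the amount of Ikaros protein left in IkE5 cells cannot be read from peak lists. Both groups were primary Treg cells from spleen and lymph nodes, kept for 1 h in a stimulation cocktail and fixed for 30 min in 1% formaldehyde before p300 was precipitated. Age, sex and pooling of animals are not stated in the labels used here, so the spread between libraries may be technical. The same series mapped Foxp3, the calcium-activated factor NFAT1 and the acetylation mark H3K27ac in IkE5 and WT cells, and Ikaros in WT cells alone. The H3K27ac libraries were fixed for 5 min, and those of Foxp3, NFAT1 and Ikaros for 30 min, as for p300.

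The acetyltransferase p300, encoded by Ep300, does not read DNA itself. Transcription factors recruit it to enhancers and promoters, where it acetylates histone tails, H3K27 among them, and bridges the factors to the transcription machinery. In T cells NFAT, Runx, Ets and AP-1 factors are known to work with it, and Foxp3 and Ikaros can act on the same regulatory elements, Ikaros also by way of the NuRD and Sin3 corepressors.

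The promoters of 5 genes are shown because a p300 region found in both libraries of a genotype and in neither of the other lay on their transcription start. They are RefSeq windows of build GRCm38.p6, the assembly of mm10, from 250 bases before to 50 bases after the start, written 5′ to 3′ along the gene. Capitals mark every match to 9 short motifs. At Tnfsf8, which encodes the ligand of CD30, the window is chr4:63861235-63861534 on the minus strand, and 212 of its bases lie in an IkE5 only region. At Havcr2, which encodes the inhibitory receptor TIM-3, it is chr11:46454681-46454980 on the plus strand, and at Gbp7, which encodes an interferon-induced guanylate-binding protein, chr3:142530086-142530385 on the plus strand. These windows lie in IkE5 only regions. At Cd96, which encodes a receptor of T and natural killer (NK) cells, the window is chr16:46120199-46120498 on the minus strand, and at Mta2, which encodes a subunit of the NuRD corepressor, chr19:8941670-8941969 on the plus strand. Both lie in WT only regions.
Tnfsf8: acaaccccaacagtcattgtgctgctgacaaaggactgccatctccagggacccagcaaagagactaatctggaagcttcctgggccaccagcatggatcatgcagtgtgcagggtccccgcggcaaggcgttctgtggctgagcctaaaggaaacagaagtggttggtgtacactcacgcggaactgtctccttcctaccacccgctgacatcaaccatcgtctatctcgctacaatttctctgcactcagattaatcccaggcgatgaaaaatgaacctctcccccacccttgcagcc
Havcr2: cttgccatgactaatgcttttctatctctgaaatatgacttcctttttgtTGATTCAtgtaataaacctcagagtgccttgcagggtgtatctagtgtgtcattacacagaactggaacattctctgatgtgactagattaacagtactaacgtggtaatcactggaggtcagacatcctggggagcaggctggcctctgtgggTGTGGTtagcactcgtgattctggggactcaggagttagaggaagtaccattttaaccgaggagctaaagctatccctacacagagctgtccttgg
Gbp7: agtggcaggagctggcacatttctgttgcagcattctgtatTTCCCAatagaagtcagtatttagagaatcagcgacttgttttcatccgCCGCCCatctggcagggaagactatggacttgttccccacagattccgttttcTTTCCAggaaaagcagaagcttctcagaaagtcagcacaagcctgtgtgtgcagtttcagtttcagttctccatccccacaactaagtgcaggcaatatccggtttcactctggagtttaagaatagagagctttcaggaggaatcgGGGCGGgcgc
Cd96: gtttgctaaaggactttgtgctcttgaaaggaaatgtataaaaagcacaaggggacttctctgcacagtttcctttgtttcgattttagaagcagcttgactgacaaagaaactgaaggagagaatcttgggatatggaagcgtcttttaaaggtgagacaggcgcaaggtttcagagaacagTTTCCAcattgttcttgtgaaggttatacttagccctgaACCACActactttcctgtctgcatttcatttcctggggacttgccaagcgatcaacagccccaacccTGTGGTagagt
Mta2: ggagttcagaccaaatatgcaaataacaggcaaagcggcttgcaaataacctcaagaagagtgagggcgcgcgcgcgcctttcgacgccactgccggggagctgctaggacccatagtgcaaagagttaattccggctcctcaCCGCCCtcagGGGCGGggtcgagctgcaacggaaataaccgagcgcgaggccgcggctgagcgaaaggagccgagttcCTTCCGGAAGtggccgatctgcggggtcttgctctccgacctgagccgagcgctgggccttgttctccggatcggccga
The Tnfsf8 window holds 0 matches. Havcr2 has an AP-1 and a Runx match, Gbp7 an Ikaros core, an NFAT core and a pair of GC box matches, Cd96 an NFAT core and a pair of Runx matches, and Mta2 a pair each of Ets and GC box matches, the Ets matches overlapping as a palindrome.

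Of the 18546 p300 regions, 8877 (47.9%) had a peak in both genotypes and 9669 (52.1%) in 1 genotype, most of the second kind in a single library. A peak in all 4 libraries was found at 4239 regions (22.9%), and 2734 (14.7%) had a peak in 3 of the 4. Regions with a peak in both IkE5 libraries and in neither WT library, called IkE5 only, numbered 1115 (6.01%). Regions with a peak in both WT libraries and in neither IkE5 library, called WT only, numbered 1045 (5.63%). A further 1904 regions had 1 library of each genotype, and 7509 (40.5%) had a single library. Presence in 2 libraries against 2 cannot give an exact permutation p under 0.333, so no region has a test of its own, and the classes are a description. The counts depend on the libraries used, since leaving one out also drops a condition. There were 2410 IkE5 only regions without IkE5 library 1, 3938 without IkE5 library 2 and 1973 without WT library 1. WT only regions numbered 2122 without IkE5 library 1, 2084 without WT library 1 and 3397 without WT library 2.

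**Figure D1:**
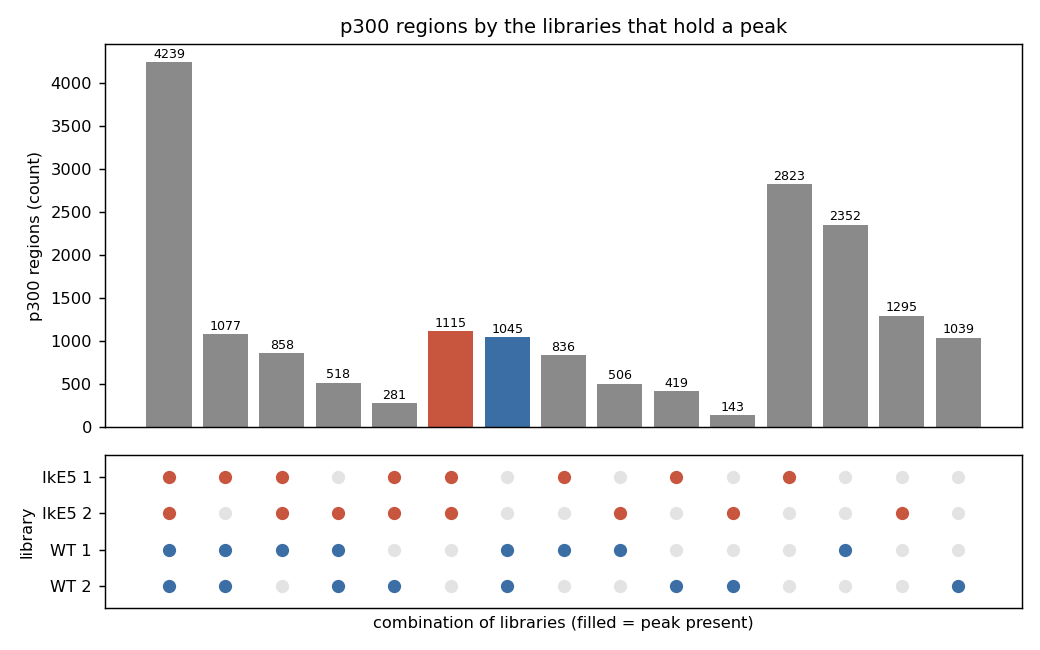
Number of p300 regions (bars, count) for each of the 15 combinations of libraries, with filled dots below each bar marking the libraries that hold a peak. The bar of regions in all 4 libraries (4239) is the highest, and the IkE5 only (1115) and WT only (1045) bars are close to each other in height.

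The lists held 11670 and 8971 peaks in IkE5 cells, against 11457 and 8775 peaks in WT cells. The groups overlapped, at 10320.5 ± 1908 peaks in IkE5 and 10116 ± 1896 peaks in WT (SD, n = 2 each, exact permutation p = 0.667, 2-sided). Library number thus separated the list lengths and genotype did not. The IkE5 pair shared 6493 regions, 46.0% of those in either library, and the WT pair shared 6879, 51.7% of those in either. Pairs of 1 IkE5 and 1 WT library shared between 41.3% and 43.6%, less than both pairs within a genotype. Identical intervals made up at most 0.650% of the shorter list of any pair, so no list was a copy of another. Read depth is unknown, since a list gives positions and no reads.

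p300 was present at the genes that mark Treg cells. Foxp3 itself and Tnfrsf18, which encodes the receptor GITR, each had 2 regions, and all of these had a peak in all 4 libraries. Of 7 Treg markers, 6 and 6 had a peak in IkE5 and 7 and 6 in WT. Lrrc32, which encodes the latent TGF-beta carrier GARP, had a single peak in WT library 1. The 5 B cell markers had peaks at 1 and 2 in IkE5 and 1 and 2 in WT, the 5 myeloid markers at 1 and 2 in IkE5 and 1 and 1 in WT, and the 5 CD8 T and NK cell markers at 0 and 0 in IkE5 and 0 and 1 in WT. A longer list of 12 myeloid genes had peaks at 4 and 3 in IkE5 and 1 and 3 in WT, with an IkE5 only region near Mpeg1, a macrophage-expressed perforin-like gene, and its part in the results was not tested. Ms4a1, Csf1r, Lyz2, Cebpa, Cd8a, Cd8b1, Ncr1 and Gzma had 0 p300 regions within 10 kb in every library.

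p300 regions of the 2 classes lay at different distances from genes. Of the IkE5 only regions, 11.9% lay on a transcription start of the RefSeq table and 58.9% lay more than 10 kb from any start (n = 1080). Of the WT only regions, 24.1% lay on a start and 49.2% more than 10 kb away (n = 1011). Regions in all 4 libraries were in between, with 17.3% on a start and 54.1% more than 10 kb away (n = 4133). The start table used here holds none for chromosome 18, so its regions are left out of these shares. Over whole lists, 16.4% and 16.3% of the peaks of the IkE5 libraries lay on a start, against 19.7% and 18.6% in the WT libraries (exact permutation p = 0.333, 2-sided, the smallest that 2 libraries against 2 allow, and 0.542 adjusted over 13 measures). The groups did not overlap, and both IkE5 libraries were lower. Within 2 kb of either end of a protein-coding gene lay 33.2% and 31.2% of the IkE5 peaks, against 35.3% and 37.4% of the WT peaks, again without overlap of the groups (exact permutation p = 0.333, adjusted 0.542). Starts were less common in regions found once, at 16.5%, than in regions with 1 library of each genotype, at 29.0%, so position also varied among classes that do not separate the genotypes.

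**Figure D2:**
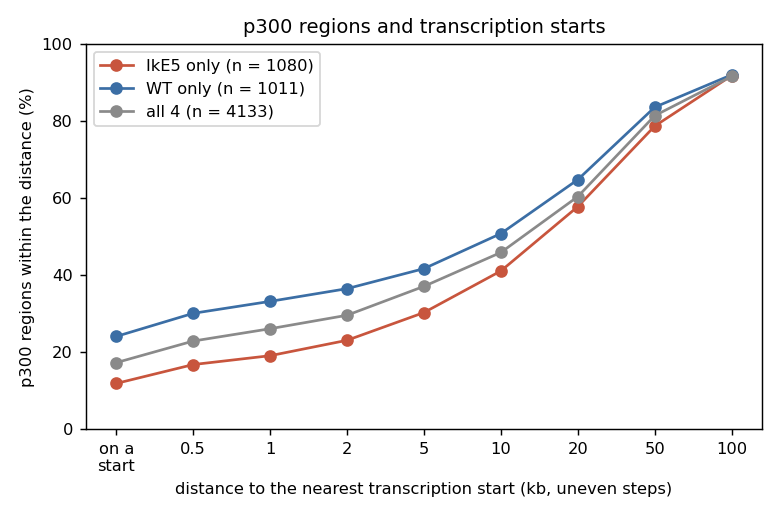
Share of p300 regions (%, vertical axis) within a given distance of the nearest RefSeq transcription start (kb, uneven steps), for IkE5 only, WT only and all 4 regions. The WT only line starts at 24.1% on a start and the IkE5 only line at 11.9%, with the all 4 line at 17.3% between them, and the lines come together at 50 to 100 kb.

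Both classes were spread over the genome. Every autosome had between 4.82% and 7.42% of its p300 regions IkE5 only and between 4.56% and 7.76% WT only. A p300 peak of the other genotype lay within 1 kb of 75 IkE5 only regions (6.73%) and of 104 WT only regions (9.95%), and the median distance to one was 18.5 kb for IkE5 only and 16.9 kb for WT only. Runs of regions of 1 class, spaced at most 50 kb apart, took in 250 IkE5 only regions (22.4%), with 18 runs of 3 or more, and 154 WT only regions (14.7%), with 6 such runs. The widths were alike, with medians of 576 bp for IkE5 only and 561 bp for WT only, and a single peak was 500 bp wide in every list, apart from 1 of 488 bp in IkE5 library 1.

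Ikaros in WT cells was found at far fewer of the IkE5 only than of the WT only p300 regions. Ikaros library 1 had a peak at 61.5% and library 2 at 45.8% of the IkE5 only regions. The same libraries had a peak at 90.5% and 77.9% of the WT only regions, and at 98.8% and 82.8% of the regions in all 4. Both had a peak at 38.1% of the IkE5 only and 74.9% of the WT only regions. For regions on a start, these shares were closer, at 83.6% (n = 128) and 94.3% (n = 244). For regions more than 10 kb from a start, they were 31.0% (n = 636) and 70.8% (n = 497). Neither Ikaros library had a peak at 343 of 1115 IkE5 only regions (30.8%), at 68 of 1045 WT only regions (6.51%) and at 33 of the 4239 regions in all 4 (0.778%). Regions held by a single p300 library were also low, with Ikaros in neither library at 33.5%. Over whole p300 lists, 64.2% and 64.8% of the IkE5 peaks overlapped a region with Ikaros in both WT libraries, against 71.7% and 77.0% of the WT peaks. The groups did not overlap, with a difference of -9.80 percentage points (IkE5 minus WT, exact permutation p = 0.333, adjusted 0.542, n = 2 each). Ikaros lists of IkE5 cells were not used here. The Ikaros and WT p300 libraries share a genotype, and the part of that in the overlap cannot be told apart from the deletion.

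NFAT1, which calcium signals send to the nucleus, had peaks at genotype only p300 regions more often in the same genotype than in the other. At the IkE5 only p300 regions NFAT1 peaks were present at 30.8% and 22.0% in the IkE5 libraries, against 12.6% and 7.09% in the WT libraries. At the WT only regions they were present at 6.60% and 4.11% in the IkE5 libraries, against 44.7% and 41.2% in the WT libraries. The groups did not overlap in either class, with differences of 16.5 and -37.6 percentage points (IkE5 minus WT, exact permutation p = 0.333 for each, adjusted 0.542, n = 2 each). The IkE5 only excess did not hold in every subset. At the 128 regions on a start, NFAT1 was at 17.2% and 5.47% in IkE5, against 17.2% and 10.2% in WT. More than 10 kb from a start (n = 636), it was at 33.5% and 25.3%, against 10.7% and 6.13%. With Ikaros in both libraries (n = 425), it was at 22.6% and 11.5%, against 18.8% and 11.1%. With Ikaros in neither (n = 343), it was at 35.6% and 28.9%, against 3.50% and 1.75%. WT only regions kept their direction in each subset. The IkE5 NFAT1 lists were the shorter ones, with 4908 and 3435 peaks against 7825 and 6850 in WT, and at the p300 regions in all 4 libraries NFAT1 was at 60.3% and 48.0% in IkE5 and at 78.4% and 78.3% in WT. Among the 6 classes of p300 region, IkE5 only was the one in which both shorter lists had a higher share than both longer ones. Counted per region, 132 IkE5 only p300 regions (11.8%) had NFAT1 in both IkE5 and neither WT library, where 1.95% of all p300 regions did, and 20 had the opposite pattern. Of the WT only p300 regions 249 (23.8%) had NFAT1 in both WT and neither IkE5 library, where 10.7% of all p300 regions did, and 2 had the opposite pattern. Most regions of both classes, however, had no such NFAT1 pattern, and 616 of the IkE5 only regions had no NFAT1 peak in any library.

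Foxp3 peaks of IkE5 cells were present at most WT only p300 regions, in shares below or near those of all p300 regions. Of the 1045 regions, 656 and 568 (62.8% and 54.4%) had one in the IkE5 libraries, against 940 and 659 (90.0% and 63.1%) in the WT libraries. Over all p300 regions the shares were 73.0% and 53.9% in IkE5, against 73.3% and 49.4% in WT. Foxp3 was in all 4 libraries at 387 WT only regions (37.0%), near the 34.9% of all p300 regions. At the 1115 IkE5 only regions Foxp3 was present at 978 and 558 in the IkE5 libraries, against 567 and 265 in the WT libraries. IkE5 library 1 stood above the others, and the groups overlapped (exact permutation p = 0.667, adjusted 0.722, n = 2 each). The difference of 31.6 percentage points (IkE5 minus WT) was 12.7 without IkE5 library 1, 50.4 without IkE5 library 2 and 18 without WT library 2. At the WT only regions the groups did not overlap, by 656 in IkE5 library 1 against 659 in WT library 2 (exact permutation p = 0.333, adjusted 0.542). The difference there was -17.9 points, with -4.50 without WT library 1 and -31.4 without WT library 2. Foxp3 was IkE5 only at 158 IkE5 only p300 regions (14.2%), against 2.66% of all p300 regions, and WT only at 62 WT only p300 regions (5.93%), against 1.84% of all. The libraries of a genotype were far apart where Ikaros was in neither library. At the 343 IkE5 only p300 regions without Ikaros, Foxp3 was at 84.3% and 27.1% in the IkE5 libraries, against 21.6% and 2.04% in the WT libraries.

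H3K27ac, the mark that p300 itself can write, covered most p300 regions of every class. At the IkE5 only regions it was present at 89.8% and 81.6% in the IkE5 libraries, against 75.6% and 54.6% in the WT libraries, without overlap of the groups (exact permutation p = 0.333, adjusted 0.542, n = 2 each). At the WT only regions it was present at 85.2% and 81.7% in the IkE5 libraries, against 93.7% and 84.5% in the WT libraries, with overlap (exact permutation p = 0.667, adjusted 0.722). The difference at IkE5 only regions was 20.6 percentage points (IkE5 minus WT), 31.1 without WT library 1 and 10.1 without WT library 2. At WT only regions it was -5.65 points, -1.05 without WT library 1 and -10.2 without WT library 2. Acetylation in all 4 libraries was found at 554 IkE5 only (49.7%) and 765 WT only (73.2%) p300 regions, beside 69.7% of all p300 regions. Over all p300 regions H3K27ac was at 86.3% and 82.5% in the IkE5 libraries, against 87.0% and 75.8% in WT. H3K27ac was itself IkE5 only at 115 IkE5 only p300 regions (10.3%), against 2.50% of all p300 regions, and WT only at 35 WT only p300 regions (3.35%), against 1.37% of all. The p300, NFAT1 and Foxp3 libraries of a genotype have a single non-histone input sample among the samples described, and H3K27ac has an input of its own. Whether the input was shared in peak calling, and its part in these joint patterns, was not tested.

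**Figure D3:**
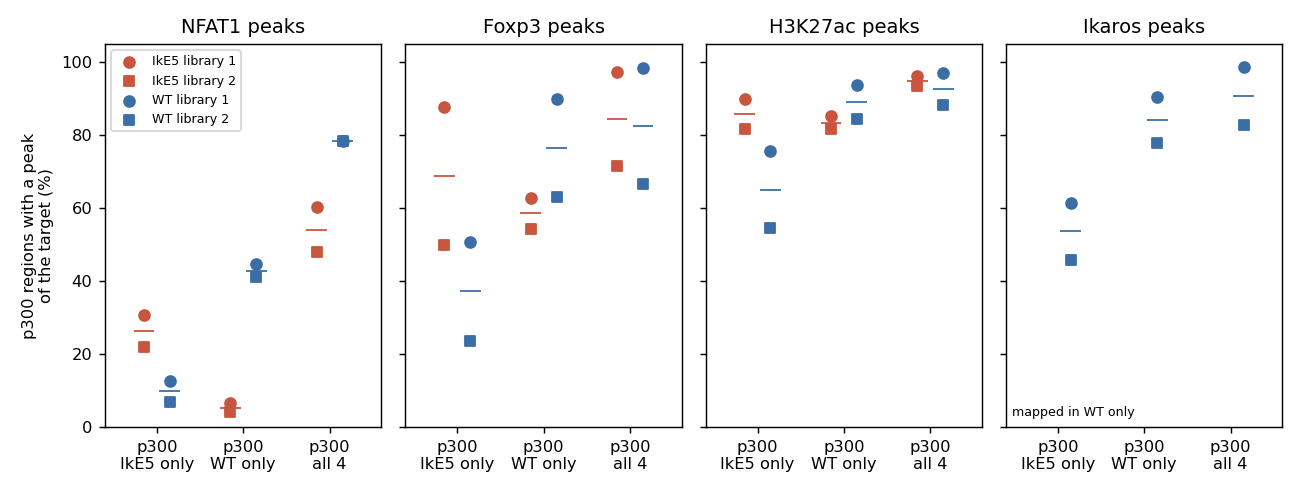
Share of p300 regions of each class (%, vertical axis) that overlap a peak of NFAT1, Foxp3, H3K27ac or Ikaros, with 1 point per library of that target (circle, library 1; square, library 2) and a line at the mean. NFAT1 points of IkE5 libraries (30.8% and 22.0%) lie above those of WT at IkE5 only p300 regions and below them at WT only regions.

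At 22 sites p300, NFAT1 and H3K27ac were all IkE5 only, and 8 of them also had Foxp3 in both IkE5 and neither WT library. Neither Ikaros library had a peak at 15 of the 22, beside 30.8% of all IkE5 only and 17.5% of all p300 regions. The site past the higher-coordinate end of Il3, the gene of a haematopoietic cytokine, was one of the 8 (chr11:54271451-54271973), 4.17 kb from the gene. Another lay in Vdr, which encodes the vitamin D receptor (chr15:97892395-97892906), and others in Aplp2 (chr9:31204662-31205251), a relative of the amyloid precursor gene, and 20.6 kb from Myh9 (chr15:77862789-77863403), which encodes a nonmuscle myosin heavy chain. Fhl2, a LIM domain cofactor gene (chr1:43169030-43169608), Lima1, an actin-binding protein gene (chr15:99818397-99818987), and Heg1 (chr16:33761950-33762579) held further sites, and 1 lay 17.4 kb from Gbp6, an interferon-induced guanylate-binding protein gene (chr5:105313317-105313923). At 14 sites p300, NFAT1 and H3K27ac were all WT only, and both Ikaros libraries had a peak at 12 of the 14. Such peaks in both were common, at 74.9% of all WT only and 60.4% of all p300 regions. A pair lay in Foxp1, a forkhead gene of resting T cells (chr6:99328191-99328695 and chr6:99350443-99350942). Others lay in Icosl, which encodes the ligand of the costimulator ICOS (chr10:78074852-78075362), Mef2c, a transcription factor gene (chr13:83609214-83609746), Camk2d, a calcium/calmodulin-dependent kinase gene (chr3:126824789-126825416), and Dgkg, a diacylglycerol kinase gene (chr16:22466280-22466845). Foxp3 was WT only at 2 of the 14.

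Of 21900 protein-coding genes, 10242 were near p300, with a region in the gene or within 10 kb. An IkE5 only region was found at 877 of them (8.56%) and a WT only region at 1153 (11.3%), and 84 had both kinds. Genes with an IkE5 only region numbered 1928 without IkE5 library 1, 3074 without IkE5 library 2 and 1652 without WT library 1. Genes with a WT only region numbered 2217 without IkE5 library 1, 2219 without WT library 1 and 3245 without WT library 2. A gene with many regions can more easily hold a genotype only one, and the median was 1.00 region per gene. Of 378 listed genes 309 had a p300 region, 49 of them an IkE5 only and 38 a WT only region. Leaving out a library gave 56 to 109 and 68 to 121 listed genes.

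Some cytokine genes of effector T cells had an IkE5 only region. Of 20 genes, 12 were near p300, with IkE5 only regions at 5 (41.7%, against 8.56% of all genes near p300) and WT only regions at 0. The 12 had 1.00 region at the median, as did all genes. Peaks were present at 10 and 10 genes of the list in the IkE5 libraries, against 8 and 7 in the WT libraries. Il3, Il4 and Il13, of which Il4 and Il13 encode type 2 cytokines, had p300 in both IkE5 libraries and in neither WT library, each at a single region. The Il13 region (chr11:53635934-53636583) lay 1.23 kb past the gene at its higher-coordinate side, and the region assigned to Il4 (chr11:53605419-53606201) lay nearer to Kif3a, a kinesin gene, at 1.17 kb. The Il4 region had Ikaros in both libraries, Foxp3 in all 4 and H3K27ac in all 4, whereas the Il3 region had Ikaros in neither. Ifng, the gene of interferon gamma, and Il2, the T cell growth factor gene, each had 2 regions in both IkE5 libraries and 1 in both WT libraries. The shared region of Il2 (chr3:37125766-37126408) lay on its start and had Ikaros in both libraries, and the IkE5 only region (chr3:37119511-37120236) had Ikaros in neither, no NFAT1 and no H3K27ac in any library. At Ifng the IkE5 only region (chr10:118435027-118435564) likewise had Ikaros in neither library, and it had H3K27ac in both IkE5 libraries alone. Il10, an anti-inflammatory cytokine gene, had 1 region, in all 4 libraries. Tnf, Lta and Ltb, neighbours on chromosome 17, had no genotype only region. Once IkE5 library 2 was left out, these 3 genes had a WT only one, a single region within 10 kb of each (chr17:35201773-35202389). The count rests on the window around a gene, because 0 of the 5 were IkE5 only within the gene body, 2 were within 2 kb and 7 genes were within 50 kb. The list was written with results for these genes known, so it is no independent evidence of their direction.

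Ligands of the tumour necrosis factor family were split between the classes. Of 7 genes near p300, 3 held IkE5 only (42.9%, against 8.56% of all genes) and 2 held WT only regions (28.6%, against 11.3%), with a median of 3 regions per gene, against 1.00 over all genes. Tnfsf8 had 3 and 3 regions in the IkE5 libraries, against 3 and 1 in WT, and the IkE5 only one lay on its start (chr4:63860922-63861446), 1.41 kb from the nearest WT peak. Tnfsf14, which encodes LIGHT, had 3 and 3 against 2 and 2 in WT, and NFAT1 was IkE5 only at the added region (chr17:57182683-57183297). Tnfsf10, the gene of the death ligand TRAIL, had an IkE5 only region in the gene (chr3:27326515-27327095). On the other side, Fasl, the Fas ligand gene, had a WT only region (chr1:161775022-161775603) beside 3 regions in all 4 libraries, and Cd40lg, the CD40 ligand gene, had one in the gene (chrX:57211726-57212238), 0.563 kb from an IkE5 peak.

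Genes that keep T cells resting had regions of both classes. Of 23 genes near p300, 5 held IkE5 only regions (21.7%, against 8.56% of all genes) and 6 held WT only regions (26.1%, against 11.3%), with 3 regions per gene at the median. Foxp1 had 21 and 19 regions in the IkE5 libraries, against 28 and 19 in WT, of which 5 were WT only and 2 IkE5 only. NFAT1 was WT only at 4 of those 5, and 1 of the 5 (chr6:99283166-99283682) lay 0.345 kb from an IkE5 p300 peak. Bach2, a repressor of effector genes, had 15 and 15 regions in IkE5, against 18 and 15 in WT, and 1 was WT only. Lef1 and Tcf7 encode high mobility group factors of naive T cells. Lef1 had 4 and 4 regions in IkE5, against 6 and 3 in WT, and Tcf7 had 1 and 1, against 3 and 1, with 1 WT only region each. Foxo1, which sustains lymph node homing, had 0 and 1 in IkE5, against 6 and 1 in WT, so WT library 1 stood apart. Besides Foxp1, IkE5 only regions of the list included those at Ets1, an Ets factor gene with 2, and at the trafficking genes S1pr1 and Ccr7. S1pr1, the receptor gene for exit from lymph nodes, had its only p300 region in the IkE5 libraries (chr3:115708938-115709470), and NFAT1 was IkE5 only there. Ccr7, the receptor gene for entry into lymph nodes, had one at chr11:99143688-99144286.

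**Figure D4:**
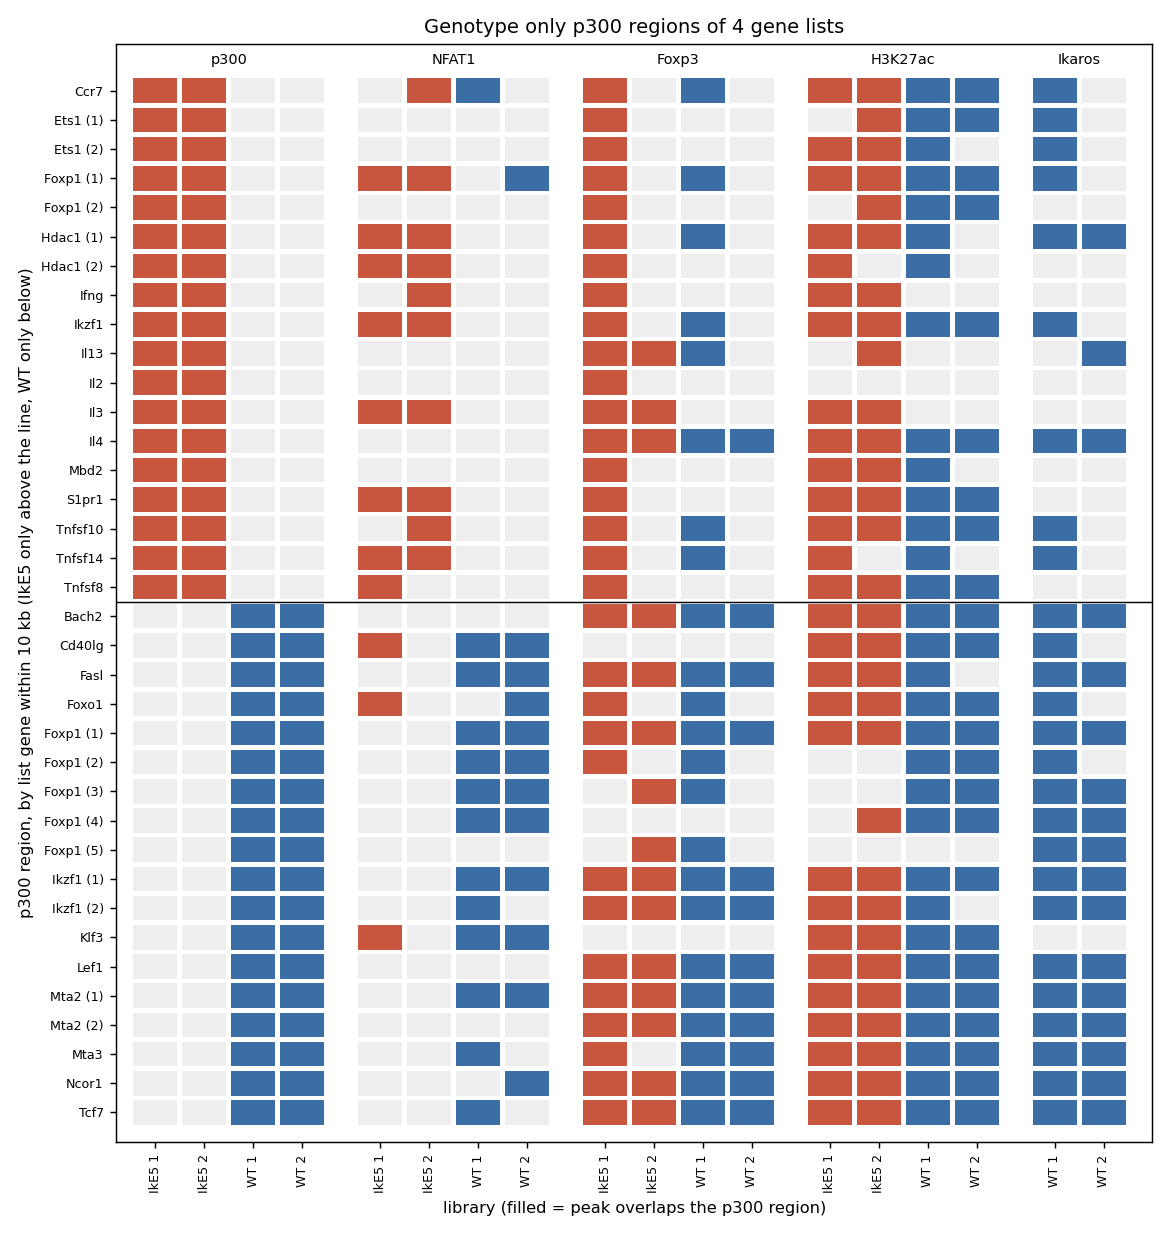
Presence (filled) or absence (pale) of a peak of each library (columns) at 18 IkE5 only (above the line) and 18 WT only (below the line) p300 regions within 10 kb of effector cytokine, TNF family ligand, naive and quiescence, and Ikaros family and corepressor genes, with 1 further IkE5 only region of these lists not drawn. Ikaros libraries 1 and 2 are filled at 9 and 3 of the drawn IkE5 only rows and at 17 and 14 of the WT only rows, and NFAT1 of the other genotype is mostly pale above and below the line.

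Ikzf1 had both kinds of region. WT only regions lay at chr11:11678814-11679331, 5.63 kb before the lower-coordinate end, and at chr11:11766020-11766594 in the gene, and Ikaros and Foxp3 were bound at both in all of their libraries. The WT only region in the gene lay 0.898 kb from an IkE5 p300 peak. An IkE5 only region lay in the gene at chr11:11731605-11732110, where NFAT1 was IkE5 only. Of 23 genes of the Ikaros family and corepressors, 3 had an IkE5 only (13.0%, against 8.56% of all genes) and 4 a WT only region (17.4%, against 11.3%), with a median of 2 regions per gene. Mta2 had 2 WT only regions within 10 kb, 1 of them on its start and also in Eml3, the other in Tut1. Hdac1, a histone deacetylase gene, had 2 IkE5 only regions within 10 kb, both with NFAT1 IkE5 only. Of these, 1 lay in Hdac1 and 1 was nearer to Marcksl1. Among 21 acetyltransferase and coactivator genes, 2 had an IkE5 only (9.52%) and 4 a WT only region (19.0%), with a median of 2.00 regions per gene. Crtc3, a CREB coactivator gene, had 2 IkE5 only regions, while Med1 and Med13l, genes of Mediator subunits, were on the WT only side. Of the 2 WT only regions within 10 kb of Med1, 1 lay in Cdk12.

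Factors that work with Foxp3 and NFAT had regions of either class in similar numbers. Of 34 genes near p300, 10 held IkE5 only (29.4%, against 8.56% of all genes) and 9 held WT only regions (26.5%, against 11.3%), with a median of 3 regions per gene. Runx2, a Runt factor gene, had 2 IkE5 only regions (chr17:44564547-44565190 and chr17:44608724-44609408), both with NFAT1 IkE5 only. Nfatc2, the gene of NFAT1, had an IkE5 only region in the gene (chr2:168580128-168580972) with neither NFAT1 nor Foxp3 in any library. Irf4 and Stat3, genes of factors of effector differentiation, had an IkE5 only region each. Smad3, a transducer of TGF-beta, and Relb, an NF-kappaB gene, had a WT only region each, both within 1 kb of an IkE5 peak. Among T cell receptor and calcium signalling genes 6 of 36 had an IkE5 only (16.7%) and 4 of 36 a WT only region (11.1%, near the 11.3% of all genes). Their median was 3.50 regions per gene, against 1.00 over all genes. Ppp3ca and Ppp3cc, genes of calcineurin catalytic subunits, each had 1 IkE5 only region. So did Itpr1, a calcium release channel gene, and Prkcq, a protein kinase C gene. Over all its regions, Itpr1 had 9 and 10 in the IkE5 libraries, against 10 and 5 in WT. Prkcq had 5 and 8 in IkE5, against 10 and 6 in WT, and its IkE5 only region lay 1.51 kb from a WT peak. Fyn had 2 IkE5 only regions and 1 WT only region. Lck, the proximal receptor kinase gene (chr4:129558440-129558976), and Cblb and Dgkz, genes that restrain receptor signals, each had 1 WT only region, among 3, 13 and 4 regions.

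Among 32 Treg signature genes, 4 held an IkE5 only (12.5%) and 3 a WT only region (9.38%), beside 8.56% and 11.3% of all genes. Il1rl1, the receptor gene for interleukin 33, had 2 IkE5 only regions, and Il18rap, a receptor chain gene for interleukin 18 that lies near it, had 1, with Foxp3 IkE5 only at the Il18rap site and at 1 of the 2. Of 12 T helper 1 genes 2 had an IkE5 only and 1 a WT only region. The IkE5 only region beside Cxcr3, a chemokine receptor gene, had no Foxp3 peak in any library and NFAT1 IkE5 only. In the list of T helper 2, 17 and follicular genes, 5 of 18 were on the IkE5 only side and 3 of 18 on the WT only side, among them Il4ra, the interleukin 4 receptor gene, and Ccr4, a chemokine receptor gene, on the IkE5 only side and Cxcr5, the follicular homing receptor gene, on the WT only side. Of 18 co-inhibitory and exhaustion genes 1, Havcr2, had an IkE5 only region, and Cd274, Cd96 and Tox had a WT only region, with a median of 3.50 regions per gene. Activation-induced genes had few of either, 2 of 34 IkE5 only and 1 of 34 WT only. B cell markers had 0 of 7 and 0 of 7, myeloid markers 1 of 6 and 0 of 6, CD8 T and NK cell markers 0 of 4 and 0 of 4, and housekeeping genes 1 of 11 and 0 of 11 for IkE5 only and WT only.

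**Figure D5:**
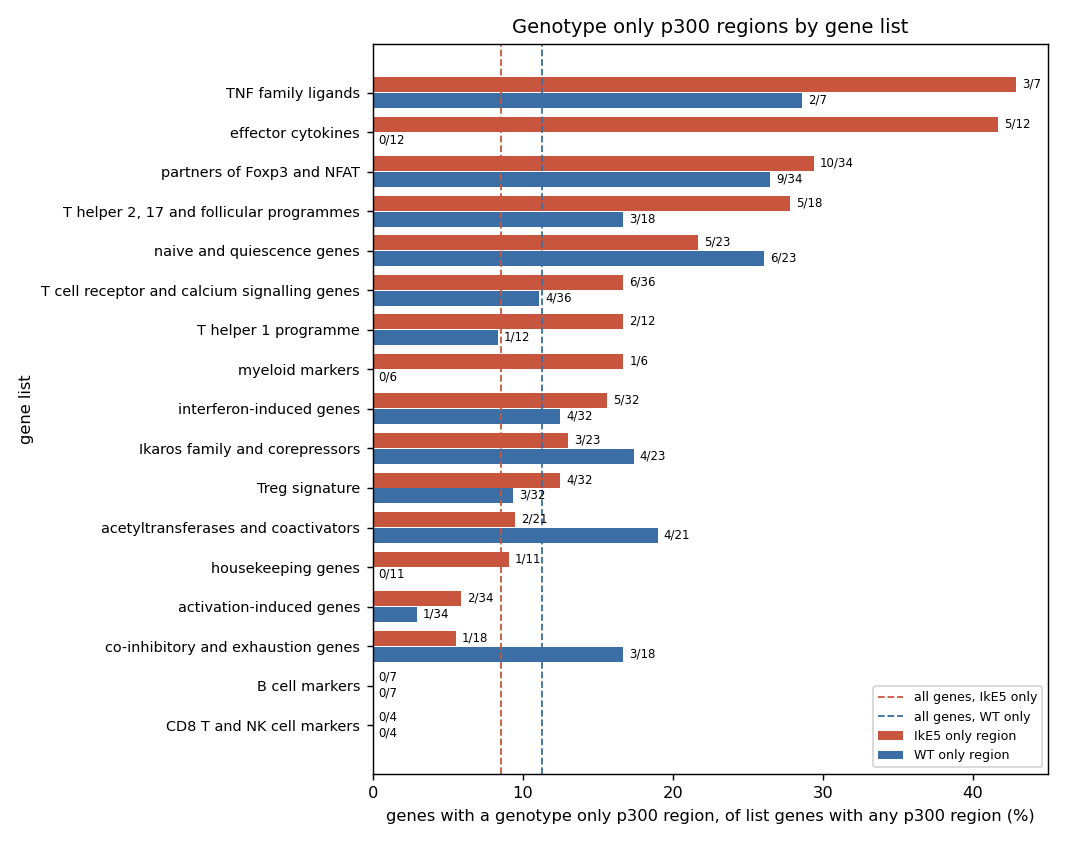
Share of list genes with a p300 region that had an IkE5 only (upper bar) or WT only (lower bar) region (%, horizontal axis), with counts beside the bars and dashed lines at the shares over all genes (8.56% and 11.3%). Effector cytokines stand at 5 of 12 IkE5 only and 0 of 12 WT only, and most lists have bars of both kinds.

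Interferon-induced genes had an IkE5 only region at 5 of 32 (15.6%, against 8.56% of all genes) and a WT only region at 4 of 32 (12.5%, near the 11.3% of all genes). Their median was 2.00 regions per gene, against 1.00 over all genes. At the neighbours Ifitm3 and Ifitm6, members of a family of interferon-induced membrane proteins, most p300 regions were IkE5 only. Ifitm6 had 3 and 3 regions in the IkE5 libraries, against 0 and 0 in WT, and Ifitm3 had 3 and 3, against 1 and 1, of which 2 were IkE5 only. Those 2 lay within 10 kb of both genes and were counted at each. They are chr7:141008244-141008825, 0.764 kb before the lower-coordinate end of Ifitm3, and chr7:141017451-141017972, 0.558 kb past the higher-coordinate end of Ifitm6. H3K27ac was IkE5 only at both. Ifitm2 and Ifitm5 of the same family had 1 and 2 regions, in all 4 libraries.

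By number of regions, the genes with most IkE5 only p300 were Etv6, an Ets family repressor gene, and Maml3, a Mastermind coactivator gene of Notch signalling, with 4 each and 0 WT only. Etv6 had 11 and 10 regions in the IkE5 libraries, against 6 and 4 in WT. Maml3 had 13 and 8 in IkE5, against 7 and 5 in WT. Clec16a, Cradd, Ifitm6, Ldlrad4, Cdk6, a cell cycle kinase gene, and Rftn1 had 3 each. Next came 66 genes tied at 2. Genes with most WT only p300 were Foxp1 with 5, then Hivep1, a zinc finger gene, Zfp219 and Rora, a nuclear receptor gene, with 3 each. Hivep1 had 0 and 2 regions in the IkE5 libraries, against 6 and 4 in WT. Rora had 14 and 11 in IkE5, against 16 and 9 in WT, with 2 IkE5 only regions beside its 3 WT only ones. Zfp219 and Arhgef40 adjoin and share regions. Gene length was not matched.

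An IkE5 only region covered all 300 bases of 127 promoter windows, a WT only region 216, and a region in all 4 libraries 711. Motifs were searched on both strands as Ikaros core TGGGAA, NFAT core TGGAAA, AP-1 TGANTCA, CRE core TGACGT, Ets CCGGAAG, Runx TGTGGT, forkhead TGTTTAC, GC box GGGCGG and E box CACGTG. The first pair and Ets share the letters GGAA or GAA, and the search counts each on its own. Ets letters were in 25.2% of IkE5 only and 25.9% of WT only windows, against 31.2% of windows in all 4 and 8.86% of all 32851 promoter windows. The Ikaros core was in 17.3% of IkE5 only and 24.5% of WT only windows, against 25.6% of all windows. The NFAT core was in 18.1% and 25.5%, against 21.4% of all windows, and the CRE core in 12.6% and 18.5%, against 7.51%. The GC box was in 61.4% and 59.3%, against 35.7%. Median GC content was 62.7% in IkE5 only, 59.3% in WT only and 52.7% in all windows, and it was not matched. Promoter windows hold a minor part of either class, and sequence of the distal regions was not used here.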

How the data were processed

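p300, NFAT1, Foxp3, H3K27ac and Ikaros were mapped by ChIP-seq, and the authors deposited 1 peak list per library with chromosome, start and end and with no score, p-value or count. Bowtie2, FastQC, HOMER, MACS2 and bedtools, with build mm10, are listed in the submitters' processing notes. The peak caller, its threshold and its input are not given in the sources used here, so no stricter threshold could be tried. A peak that is missing from a list may lie just under that threshold.

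Peaks of the 4 p300 lists were joined at 1 bp of overlap and classed by library with Python 3.11.15, numpy 2.4.6 and pandas 2.3.3, tested on simulated lists. Genes were the protein-coding genes of RefSeq for GRCm38.p6, with 10 kb on each side, and starts were those of the RefSeq promoter table. Values per library were compared by a 2-sided exact permutation test, with Benjamini-Hochberg adjustment over 13 measures. Overlap with a target over whole p300 lists was with regions held by both libraries of that target in the same genotype (WT for Ikaros). The 17 gene lists, the members and the tests were chosen with earlier results of these data known. Named genes were taken from list members with a genotype only region, the 10 genes with the most regions of each class, and the genes nearest to sites where p300, NFAT1 and H3K27ac share a genotype. 3 listed names were not matched to a gene. Alternatives covered the overlap and gap that join peaks, the distance to the other genotype, the window around a gene, and each library left out. Some items are not reported here.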

Additional observations from a re-analysis of the deposited data

How the results depend on the processing

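Of the settings other than leaving out a library or blocking by number, 46 values were the same and 9 counts moved, all with the window around a gene. Here a count was the same if it stayed near the reported one. A difference between genotypes was the same if it kept its sign, and its nearness was not assessed. With the gene body alone, 29 listed genes and 0 effector cytokine genes had an IkE5 only region, and 726 genes had a WT only region. Within 2 kb, 2 effector cytokine genes had an IkE5 only region. Within 50 kb, 1963 genes and 91 listed genes had an IkE5 only region, and 2487 genes, 83 listed genes and 1 effector cytokine gene had a WT only region.

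Leaving out 1 library at a time drops a condition of the class, so counts were higher. They ran from 1396 to 3938 IkE5 only and from 1563 to 3397 WT only regions, from 1198 to 3074 genes with an IkE5 only and from 1675 to 3245 with a WT only region, from 56 to 109 and from 68 to 121 listed genes, and from 5 to 7 and from 0 to 3 effector cytokine genes. The difference in peak number (IkE5 minus WT) ran from -1145 to 1554 and was reversed without IkE5 library 1 (-1145) and without WT library 2 (-1136). The difference in the share of p300 peaks in H3K27ac ran from -3.59 to 1.85 percentage points and was reversed without IkE5 library 1 (1.85) and without WT library 2 (0.156). At IkE5 only and WT only regions the Foxp3 difference ran from 12.7 to 50.4 and from -31.4 to -4.50 points, and that of H3K27ac from 10.1 to 31.1 and from -10.2 to -1.05. The cause was not tested.

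A replicate block by library number cannot change a count of regions (1115 IkE5 only, 1045 WT only) or a mean difference in this design, so it says nothing about stability, and its exact permutation p was 0.5 at the least, the smallest that 2 pairs allow. The correlation of number 1 minus number 2 between the genotypes was -0.050 over 18546 regions, each with a peak in at least 1 library. It cannot tell whether libraries of the same number share more than that number, which was not tested. Library 1 had the longer p300 list in both genotypes. The measure on transcription starts was chosen after seeing the data and was not run under the alternatives. No stricter peak threshold could be tried, since the lists hold no scores, and read depth limits every count to an unknown degree.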
